A study of Mus musculus with 3 samples.

Results

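Single mouse embryonic stem cells, which are pluripotent cells derived from the blastocyst, were divided by how much RNA of 8 mitotic genes they held, and the cells at both ends were compared. The mitotic score of a well was the sum of its UMIs (unique molecular identifiers, each marking 1 captured RNA molecule) of Ccnb1, Cdc20, Plk1, Aurka, Cenpf, Top2a, Ube2c and Tpx2, per 1000000 UMIs of all genes. Within each plate and cell type the 20% of wells with the highest score were called mitotic-high and the 20% with the lowest mitotic-low. Of 4640 wells, 4610 belonged to the 3 cell types, 4413 of these had at least 1000 genes and under 20% mitochondrial UMIs, and 3368 of those reached 12000 gene UMIs and were scored. This gave 671 mitotic-high and 671 mitotic-low wells, 55 to 100 of each per plate and type, with 2026 wells between them and 1045 left out as too shallow to score. The 8 score genes chose the wells, so their levels are a description and they were left out of every test.

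Apart from the deletion in the Mll1-/- type, all cells had the genotype Mll1fl/fl with Cre-ER TM on the C57BL/6J background. Mll1, now named Kmt2a, encodes a methyltransferase of histone H3 lysine 4. The 3 cell types were the Mll1fl/fl control, Mll1-/- cells (deleted) and cells with Mll1 inhibition (inhibited), and each of 3 plates held all 3. The labels name no inhibitor, dose, duration, deleted exon, clone or promoter of the Cre, and do not tell whether each plate was a culture of its own. The p-values therefore measure the spread between these libraries, which may be technical. Scored wells numbered 1217 control, 968 deleted and 1183 inhibited. UMIs were summed per plate, cell type and class, which gave 18 libraries in 9 pairs, each pair being the mitotic-high and mitotic-low wells of 1 plate and type.

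Dividing cells build up the transcripts of mitosis from the late S phase through G2 and destroy many of them, with their proteins, on leaving mitosis. CDK1 bound to B-type cyclins drives entry, Aurora and Polo-like kinases build the spindle, the checkpoint holds the anaphase-promoting complex until every kinetochore is attached, and that complex with CDC20 then has cyclin B and securin degraded. Many of these genes share promoter elements, the cell cycle homology region and CCAAT boxes, through which the DREAM and B-MYB complexes and NF-Y act. Embryonic stem cells divide fast with a short G1 phase, so most cells of a culture are in S, G2 or M.

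The score had a median of 1659 per 1000000 UMIs over the scored wells and ranged from 0 to 11193. In the mitotic-low class the pair medians ran from 569 to 778 (median 652), and in the mitotic-high class from 3104 to 3591 (median 3226). The ratio between the classes was thus 4.14 to 6.26 in a pair. The boundary was not a gap: the last well inside the low class had a score of 837 to 1037 and the first outside it 839 to 1064, while the first well inside the high class had 2403 to 3031 and the last outside it 2398 to 3015. Only 3 scored wells held no UMI of a score gene, and the 15 wells without cells held 0 or 1.

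**Figure D1:**
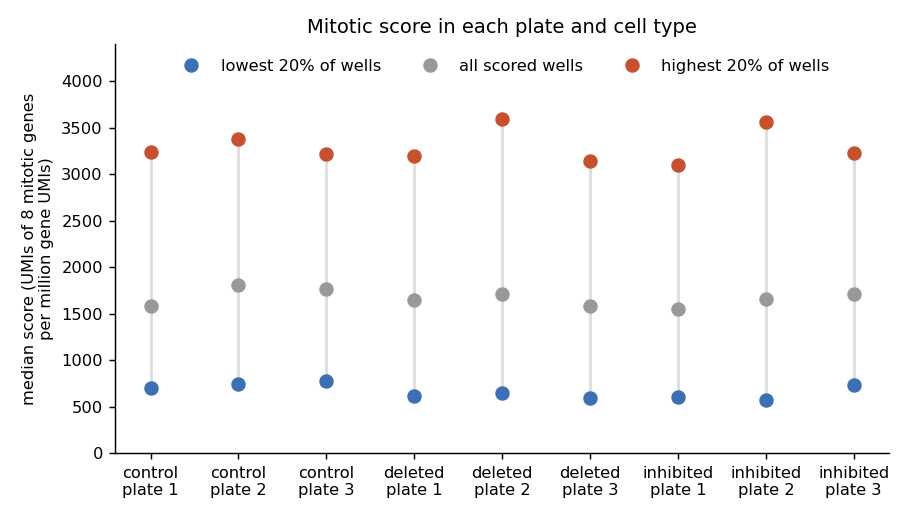
Median mitotic score (UMIs of the 8 score genes per 1000000 gene UMIs) for the lowest 20%, all and the highest 20% of scored wells in each plate and cell type. The classes were chosen by this value. The medians of all wells lie between 1555 and 1805, and no plate or cell type stands apart.

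Each of the 8 genes contributed to the division. Cenpf, which encodes a large kinetochore and nuclear matrix protein, was at 76.8, 98.5 and 120.4 CPM (UMI counts per 1000000; lowest, median and highest of the 9 low libraries) against 741, 895 and 944 CPM in the high libraries. Its median ratio of 9.03 was the widest of the 8. Ube2c, the ubiquitin-conjugating enzyme of the anaphase-promoting complex, went from a median of 60.9 to 426 CPM and Plk1, Polo-like kinase 1, from 24.1 to 152 CPM. Aurka, the Aurora kinase of the spindle poles, went from 35.5 to 176 CPM. Top2a, the topoisomerase that untangles sister chromatids, went from 131 to 671 CPM, and Tpx2, which activates Aurora A on the spindle, from 116 to 549 CPM. Ccnb1, cyclin B1, went from 92.2 to 325 CPM and Cdc20, the activator of the anaphase-promoting complex, from 83.6 to 297 CPM, the narrowest ratio (3.19). Across quintiles of wells by score, from lowest to highest, the median level of Cenpf was 97.4, 223, 346, 553 and 891 CPM, and the other 7 genes also increased at every step.

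Score genes were also compared between wells chosen by 4 others of the score. All were picked as mitotic genes, so shared rises were likely beforehand. The values describe how far the score genes rise together and do not test the label on genes from outside the score. When wells were chosen by Ccnb1, Cdc20, Plk1 and Aurka alone, each of the other 4 genes was higher in the high class in 9 of 9 pairs, with median ratios of 1.87 (Top2a) to 2.95 (Ube2c). When they were chosen by Cenpf, Top2a, Ube2c and Tpx2, the ratios of the remaining 4 were 1.48 (Cdc20) to 3.51 (Plk1), again in 9 of 9 pairs. The split scores nevertheless picked different wells in part: 263 of 671 high wells were shared, and 60 wells were high by the first 4 genes and low by the other 4. Per well, the score rested on a median of 28 UMIs (pair medians 19 to 38) in the low class and 196 (158 to 316) in the high class, so counting error moves wells near the boundary. After every well was thinned to 12000 UMIs, 569 of the 671 high wells and 550 of the 671 low wells were chosen again.

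Depth differed between the classes in part. The pair medians of UMIs per well were 34472 to 58705 in the low class and 43541 to 88459 in the high class, higher in the high class in 6 of 9 pairs, and genes detected per well were higher in 8 of 9. The share of spike-in RNA was lower in the high class in 7 of 9 pairs. These are described and not tested, since gene UMIs are the denominator of the score. Any pair of plates shared 436 to 503 cell barcodes, and each well was identified by plate and barcode. The 24 source wells named in the files gave 15.2 to 26.0% of their wells to the high class and 12.9 to 32.4% to the low class.

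The main comparison asked which genes outside the score differ between mitotic-high and mitotic-low cells of the same plate and type. Of 14027 genes tested, 322 passed (2.3%), 170 higher (1.21%) and 152 lower (1.08%) in mitotic-high cells, by edgeR's quasi-likelihood test with the pair as a block and Benjamini-Hochberg adjustment at 0.05. Among called genes with the same sign in 9 of 9 pairs and a mean of at least 10 CPM, the 10 largest rises included Nusap1, Prc1, Aspm, Hmmr and Cdca2, genes of the spindle, cytokinesis and anaphase chromosomes, and the 10 largest falls included Krt18, Krt8, Dsp, Acta1 and Tinagl1, genes of keratin filaments, desmosomes, actin and the basement membrane. The levels of all 9 high libraries lay above those of all 9 low libraries for 40 genes (0.285%) and below them for 3 (0.0214%). Of the 322 genes, 218 had the same sign in all 9 pairs. The count rested on the plates: 162 genes passed without plate 1, 83 without plate 2 and 135 without plate 3, and 68 of the 322 (50 higher, 18 lower) passed in each of these. Of 59 genes named by rule that passed, 31 passed without each plate and 25 under every alternative. Where a named gene lost its call without a plate, that adjusted p is given with it.

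The spindle list had the highest share of rises. Of 30 tested genes of spindle motors and microtubule proteins, 19 rose and none fell, with a median log2 difference of 0.89 beside -0.00 over all genes tested. Nusap1 (GRCm38/mm10 chromosome 2, 119618298 to 119651244), a protein that bundles and anchors spindle microtubules around chromosomes, was at 12.8, 18.8 and 36.8 CPM in the low and 85.4, 109.9 and 125 CPM in the high libraries. The groups did not overlap, and the log2 difference was 2.42 ± 0.18 (SE; edgeR adjusted p = 1.49e-06). Hmmr, the hyaluronan-mediated motility receptor that also acts at spindle poles, rose by 1.53 ± 0.12, from a median of 312 (167 to 414) to 824 (629.6 to 1165) CPM. Aspm, the microcephaly protein of the spindle poles, rose by 1.79 ± 0.17, from 28.4 (23.0 to 59.2) to 120.5 (70.7 to 133) CPM. Kif20b, a kinesin of late mitosis, rose by 1.07 ± 0.08, from 219 (174 to 288) to 450.0 (385 to 525) CPM. For none of these 4 genes did the classes overlap. Ckap2l, a spindle protein, rose by 1.67 ± 0.18 and Kif18a, the kinesin that damps chromosome movements, by 1.52 ± 0.20.

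Cytokinesis genes gave the largest group median, 1.13, with 11 of 21 tested genes higher and none lower. Prc1 (chromosome 7, 80294450 to 80316259), which cross-links the microtubules of the central spindle, had the smallest adjusted p of the genes named. It was at 102, 127 and 151 CPM in the low and 383, 442 and 609.9 CPM in the high libraries, with a log2 difference of 1.90 ± 0.08 (edgeR adjusted p = 2.12e-09). The 9 high libraries were all above the 9 low ones, and over single wells the pair medians of Prc1 were 25.6 to 92.2 CPM in low, 134 to 232 in middle and 299 to 463 in high wells. Incenp, the scaffold of the chromosomal passenger complex that carries Aurora B, rose by 1.34 ± 0.11, from 78.5 (68.2 to 100.2) to 208 (155 to 288) CPM. Kif23, the motor of the centralspindlin complex, rose by 1.30 ± 0.14 and Cdca2, a phosphatase subunit that loads onto anaphase chromosomes, by 1.54 ± 0.14. Arhgef39, a guanine nucleotide exchange factor outside the list, had the largest log2 difference among the named genes, 2.68 ± 0.44, at a low level. It was at 0.607, 2.16 and 11.9 CPM in the low and 8.56, 15.9 and 37.4 CPM in the high libraries, which overlapped, and it did not pass without plate 2 (edgeR adjusted p = 0.101).

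Among kinetochore and checkpoint genes, 19 of 34 tested were higher and none lower, with a median of 0.74. Cenpe (chromosome 3, 135212537 to 135273611), the kinesin that carries chromosomes to the metaphase plate, was at 121, 162 and 204 CPM in the low and 355, 420.4 and 521 CPM in the high libraries. These did not overlap, and the log2 difference was 1.40 ± 0.09 (edgeR adjusted p = 2.97e-07). Cenpa, the histone H3 variant that marks centromeres, rose by 1.46 ± 0.14, from 89.5 (60.4 to 156) to 269 (222 to 327) CPM. Spc25, a subunit of the NDC80 complex that binds microtubules, rose by 0.85 ± 0.10.

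Genes of mitotic entry also rose in part. Of 18 tested genes of CDK1, cyclins and mitotic entry, 7 rose and none fell, with a median of 0.78. Cdk1 (chromosome 10, 69335146 to 69352938), the kinase of mitosis itself, was at 96.9, 138 and 212 CPM in the low and 316, 334 and 410.0 CPM in the high libraries, with no overlap and a log2 difference of 1.35 ± 0.10. Cks2, a small subunit of cyclin-dependent kinase complexes, rose by 1.00 ± 0.09 and its relative Cks1b by 0.34 ± 0.04. Ccnb2, cyclin B2, rose by 0.73 ± 0.08, from 138 (95.2 to 178) to 211 (143 to 294) CPM, with overlapping groups though it was higher in 9 of 9 pairs. Ccnb1-ps and Gm12856, which share 78.7 and 61.7% of their 31-base words with Ccnb1, also rose, by 1.34 ± 0.16 and 1.36 ± 0.30. Reads from the shared stretches cannot be told from those of the score gene, so these calls are uncertain.

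The anaphase-promoting complex, apart from its score genes Cdc20 and Ube2c, gave 2 rises among 19 tested genes and a median of 0.16. Fzr1, which replaces CDC20 as activator when cells leave mitosis, was at 15.9, 31.1 and 42.6 CPM in the low and 49.6, 68.1 and 75.0 CPM in the high libraries, a log2 difference of 1.16 ± 0.17 (edgeR adjusted p = 0.00124, and 0.0501 without plate 2). The core subunit Cdc27 rose by 0.52 ± 0.12 over the 9 pairs (edgeR adjusted p = 0.0362), and without plates 1, 2 and 3 its adjusted p was 0.337, 0.256 and 0.103. Espl1, separase, which cuts cohesin at anaphase, did not pass (0.76 ± 0.23, edgeR adjusted p = 0.12) although it was higher in 9 of 9 pairs.

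Genes of chromosome structure rose as well. Of 27 tested genes of condensin, cohesin and mitotic chromosome proteins, 9 rose and none fell, with a median of 0.32. Mki67 (chromosome 7, 135689784 to 135716361), the Ki-67 protein that coats mitotic chromosomes, was at 84.6, 133 and 174 CPM in the low and 283, 358 and 399 CPM in the high libraries, with no overlap and a log2 difference of 1.41 ± 0.10 (edgeR adjusted p = 7.28e-07). Smc4, a core subunit of condensin, rose by 0.79 ± 0.10 and Hmgb2, a DNA-bending chromatin protein, by 0.60 ± 0.07. H2afx, the H2A variant phosphorylated at DNA breaks, rose by 0.94 ± 0.09, from 68.4 (55.6 to 102) to 148 (101 to 166) CPM.

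The plot of levels in the low and high classes shows these rises beside the falls described further on.

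**Figure D2:**
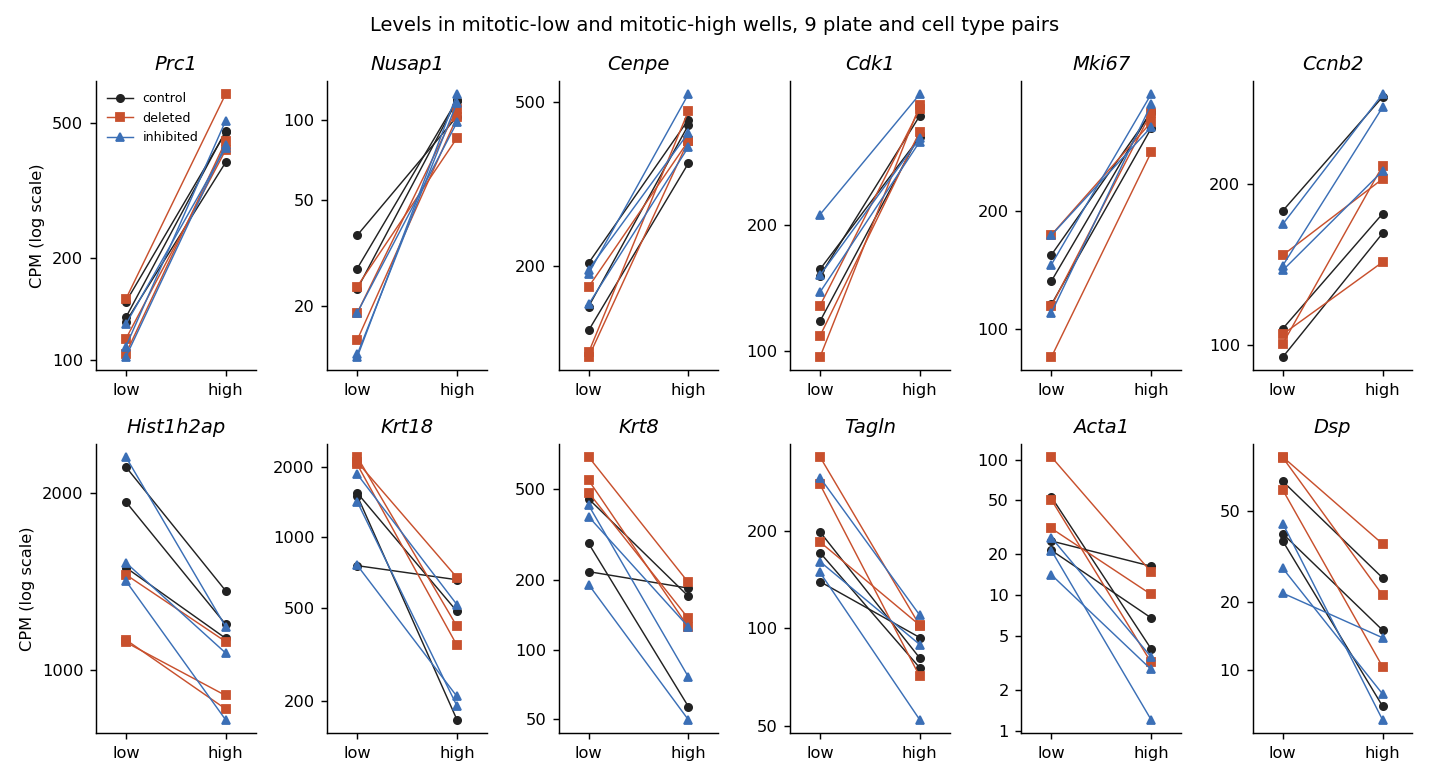
Level in CPM on a log axis of 12 genes in the mitotic-low and mitotic-high library of each of the 9 plate and cell type pairs, joined by a line. Prc1, Nusap1, Cenpe, Cdk1 and Mki67 have no high library at or below a low one, Ccnb2 rises in every pair with overlapping groups, and the lower row falls in every pair. The control pair of plate 1 has the flattest lines for Krt18 and Krt8.

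Because the rising genes are known for common promoter elements, the 250 bases before their RefSeq start sites (GRCm38.p6) were searched for TTTGAA or TTCGAA, the letters of the cell cycle homology region, and for CCAAT, on both strands. Matches of the 2 motifs can share at most 1 base. Of 150 genes in the 6 G2 and mitosis lists, 126 had 1 or more windows, and 34.0% of their 144 windows held TTTGAA or TTCGAA, 56.9% CCAAT and 24.3% both. Over all 32851 windows the shares were 17.1, 33.8 and 6.02%. Among the 170 genes that rose, 127 had a window, and 27.8% of 151 windows held the first, 60.9% the second and 23.2% both. Among the 152 that fell, 109 had a window, and the shares over 136 windows were 8.82, 32.4 and 1.47%. The 58 windows of the replication lists held TTTGAA or TTCGAA in 15.5% and CCAAT in 53.4%. A match is a description of letters and not a bound site.

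The last 150 bases before the start are printed for genes whose windows hold no GENCODE exon. Top2a and Cenpf are score genes, Ccnb2, Hmmr and Mki67 rose, and Acta1, which had the largest fall within the limits of 9 of 9 pairs and 10 CPM, is shown for contrast. All 6 lie on the minus strand and are printed 5′ to 3′ on that strand, with matches of both motifs, on either strand, in capitals. Their positions are chr11:99024190-99024339 (Top2a), chr1:189688087-189688236 (Cenpf), chr9:70421555-70421704 (Ccnb2), chr11:40733438-40733587 (Hmmr), chr7:135716380-135716529 (Mki67) and chr8:123894776-123894925 (Acta1).
Top2a: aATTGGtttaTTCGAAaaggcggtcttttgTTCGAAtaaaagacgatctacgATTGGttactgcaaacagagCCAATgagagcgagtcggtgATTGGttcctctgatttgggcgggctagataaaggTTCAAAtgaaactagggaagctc
Cenpf: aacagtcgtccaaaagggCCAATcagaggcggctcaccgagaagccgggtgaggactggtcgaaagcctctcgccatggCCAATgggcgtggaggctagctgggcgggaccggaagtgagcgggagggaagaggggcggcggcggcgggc
Ccnb2: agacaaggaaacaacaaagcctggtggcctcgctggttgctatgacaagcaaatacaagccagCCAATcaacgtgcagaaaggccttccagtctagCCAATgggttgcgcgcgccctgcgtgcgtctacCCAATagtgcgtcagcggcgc
Hmmr: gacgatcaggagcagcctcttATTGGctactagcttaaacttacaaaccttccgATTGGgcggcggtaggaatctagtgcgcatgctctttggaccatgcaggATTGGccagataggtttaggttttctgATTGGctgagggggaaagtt
Mki67: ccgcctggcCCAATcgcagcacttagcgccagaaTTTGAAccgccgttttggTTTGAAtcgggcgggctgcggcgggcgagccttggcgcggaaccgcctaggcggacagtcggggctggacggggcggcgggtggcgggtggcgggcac
Acta1: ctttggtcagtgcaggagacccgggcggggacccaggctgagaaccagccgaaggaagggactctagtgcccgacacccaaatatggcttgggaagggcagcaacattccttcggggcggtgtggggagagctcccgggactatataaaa
The Top2a window holds 3 matches of the homology region letters, the nearest ending 17 bases before the start, and 4 of CCAAT. Mki67 has 2 and 1, while Hmmr has 4, Ccnb2 3 and Cenpf 2 of CCAAT alone. The Acta1 window holds neither.

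Few genes of the earlier phases of the cycle passed. Of 21 genes of G1 and S phase entry 1 rose, of 26 of replication licensing 1 rose, and of 34 of the replication fork and nucleotide supply 1 rose, with none lower and medians of 0.16, 0.22 and 0.15. These shares of 4.76, 3.85 and 2.94% were near the 2.3% called over all genes tested. The log2 difference was above 0 for 11, 20 and 26 of the genes. The summed levels were higher in mitotic-high wells in 8, 7 and 8 of 9 pairs. Dbf4, which activates the CDC7 kinase at origins, rose by 0.71 ± 0.12, from 89.8 (48.0 to 124) to 148 (94.0 to 162) CPM (edgeR adjusted p = 0.00311, and 0.0544 without plate 2). Rrm2, the ribonucleotide reductase subunit, rose by 0.33 ± 0.08 (edgeR adjusted p = 0.0418) and did not pass without plate 1, 2 or 3 (0.181, 0.184 and 0.219). Ccnd1, cyclin D1 of G1, also rose, by 0.57 ± 0.12 (0.0142), but not without plate 2 (0.178) or plate 3 (0.171). Mcm3, a subunit of the replicative helicase, did not pass (0.34 ± 0.10, edgeR adjusted p = 0.125). From the lowest quintile of wells to the highest, the summed level of the licensing genes was 0.962, 1.04, 1.03, 1.00 and 1.02 of its mean.

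Among replication-dependent histone genes, whose transcripts are made in S phase and lack a poly(A) tail in their usual form, some went the other way. Of 38 tested genes none rose and 5 fell, all 5 of them H2A genes, with a median of -0.36. The log2 difference was below 0 for 25 of the 38 and above 0 for 13. The summed level was lower in mitotic-high wells in 9 of 9 pairs, with medians of 2187 CPM in low and 1697 CPM in high libraries. Hist1h2ap (chromosome 13, 21833026 to 21833507), an H2A gene, was at 1113, 1493 and 2305 CPM in the low and 821, 1116 and 1363 CPM in the high libraries. It made up most of the list's summed level. The groups overlapped, but it was lower in 9 of 9 pairs, and it fell by 0.57 (SE 0.06) on the log2 scale (edgeR adjusted p = 0.000104). Hist1h2ae fell by 0.76 (SE 0.09). Hist1h2ao fell by 0.59 (SE 0.09; edgeR adjusted p = 0.00264, and 0.0816 without plate 1) and Hist2h2ac by 1.22 (SE 0.25; 0.016). Without plates 1, 2 and 3 the adjusted p of Hist2h2ac was 0.191, 0.214 and 0.0514. Hist1h2an, named after its values were seen to complete the count, fell by 0.71 (SE 0.16; 0.0305, and 0.116 to 0.277 without a plate). These genes are near-identical copies, so which of them the reads came from is uncertain. Relative to the mean of the quintiles, the histone list, and so largely Hist1h2ap, stood at 1.11, 1.12, 1.05, 0.929 and 0.706 from the lowest score to the highest.

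**Figure D3:**
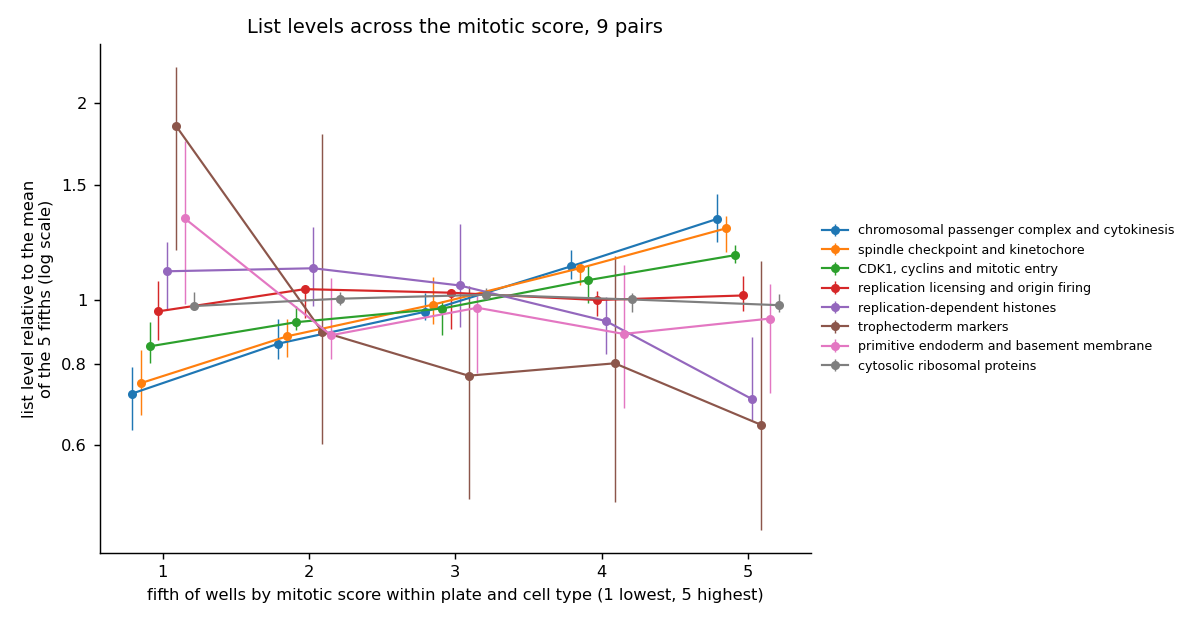
Summed level of 8 gene lists in the quintiles of wells by mitotic score, relative to the mean of the quintiles in the same pair, on a log axis. Points are medians over 9 pairs and bars their lowest and highest pair. The cytokinesis list climbs from 0.720 to 1.33, the histone list ends at 0.706, the trophectoderm list goes from 1.85 in the lowest quintile to 0.895 in the next with wide bars, and ribosomal protein genes stay within 0.958 to 1.04.

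Keratin, desmosome and actin genes were among those that fell. Krt18 (chromosome 15, 102028180 to 102032027), which encodes keratin 18, was at 756, 1549 and 2211 CPM in the low and 165, 415 and 673 CPM in the high libraries. No high library reached a low one, and the log2 difference was -2.05 ± 0.23 (edgeR adjusted p = 0.000101). Krt8 (chromosome 15, 101996698 to 102004482), its partner keratin in simple epithelia, was at 192, 423 and 687 CPM in the low and 49.6, 126 and 196 CPM in the high libraries, a difference of -1.76 ± 0.18. Dsp, desmoplakin, which ties keratin filaments to desmosomes, fell by 1.81 (SE 0.22), from 44.2 (21.8 to 86.8) to 13.9 (6.04 to 35.9) CPM. Acta1 (chromosome 8, 123891769 to 123894751), the skeletal muscle actin, fell by 2.61 (SE 0.36), from 26.6 (14.1 to 105) to 4.02 (1.21 to 16.4) CPM. Tagln, transgelin, an actin-binding protein of smooth muscle, fell by 1.27 (SE 0.13), from 185 (139 to 339) to 89.1 (52.1 to 109.8) CPM, also with no overlap. The remaining gene whose high libraries all lay below its low ones was Podxl, podocalyxin, named after its values were seen (-0.87 ± 0.21, edgeR adjusted p = 0.0378). It did not pass without a plate (0.123 to 0.347).

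Other falls within the limits of 9 of 9 pairs and 10 CPM were at low levels and rested more on single plates. Tinagl1, a secreted basement membrane protein, fell by 1.78 (SE 0.26), from 27.0 (12.7 to 62.8) to 6.51 (3.07 to 16.5) CPM (edgeR adjusted p = 0.00106, and 0.221 with every well thinned to 12000 UMIs). Col4a2, a collagen IV chain, fell by 1.68 (SE 0.37; edgeR adjusted p = 0.0253, and 0.084 without plate 1 and 0.373 without plate 2). Gm2a, a lysosomal activator protein, fell by 1.62 (SE 0.30; 0.00907, and 0.0816 without plate 1 and 0.278 without plate 2). Gsn, the actin-severing protein gelsolin, fell by 1.53 (SE 0.28; 0.00766, and 0.12 without plate 2 and 0.104 without plate 3). Sept4, a septin, fell by 1.59 (SE 0.37; 0.0341) and did not pass without plate 1, 2 or 3 (0.186, 0.0865 and 0.234). Every gene in this paragraph was lower in 9 of 9 pairs, as the rule for naming it required.

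Few wells held most of the RNA of these genes. In the 671 mitotic-low wells, the 67 with the most Krt18 UMIs held 80.4% of them, and in the mitotic-high wells the share was 77.6%. The same share was 97.0% for Acta1 and 89.3% for Dsp in low wells, against 54.8% for Prc1 and 41.8% for Hist1h2ap. The median well differed less in Krt18 than the sums did: the pair medians over single wells were 137 to 390 CPM in low, 91.1 to 210.2 in middle and 56.1 to 170 in high wells, lower in the high class in 9 of 9 pairs. From the lowest quintile to the highest the summed level of Krt18 was 1589, 472, 387, 497 and 416 CPM, so the lowest stood apart from the other 4. For Tagln the median of the pair medians over single wells was 7.73 CPM in low and 0 in high wells, with the middle wells between them, lower in the high class than in the low in 6 of 9 pairs and higher in 2.

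Lists of other cell types were examined beside these falls. Trophectoderm is the outer epithelium of the blastocyst. Of its 18 tested markers 5 fell (27.8%, beside 1.08% lower over all genes tested) and none rose, with a median of -0.41. The log2 difference was below 0 for 12 of the 18 and above 0 for 6. The summed level of the list was 1451 to 3827 CPM in the low and 577 to 1507 CPM in the high libraries. The markers that fell were Krt18, Krt8, Krt19, Lgals3 and Krt7. Krt19, another keratin, fell by 1.40 (SE 0.29; edgeR adjusted p = 0.0163, and 0.222 without plate 2 and 0.0521 without plate 3). Lgals3, galectin-3, fell by 0.98 (SE 0.21; 0.0246, and 0.218 without plate 2 and 0.154 without plate 3). Krt7, named after its values were seen, fell by 1.91 (SE 0.43; 0.0298, and 0.387 without plate 2 and 0.309 without plate 3) and was lower in 7 of 9 pairs. Of the transcription factors that define trophectoderm none passed: Cdx2 was at medians of 3.38 CPM in low and 3.89 CPM in high libraries, Gata3 at 10.2 and 11.6, and Eomes at 4.25 and 8.67. Elf5, with 2 UMIs in all 18 libraries, was too rare to test. The part of such cells in the falls was not tested.

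Of 14 tested primitive endoderm and basement membrane genes 3 fell (21.4%, beside 1.08% lower over all genes tested) and none rose, with a median of -0.38. The log2 difference was below 0 for 10 of the 14 and above 0 for 4. Sparc, a secreted matrix protein, fell by 0.40 (SE 0.09; edgeR adjusted p = 0.0306, and 0.287 without plate 2 and 0.231 without plate 3), and Col4a1, collagen IV, by 1.10 (SE 0.25; 0.0323, and 0.264 without plate 1 and 0.342 without plate 2). Col4a2 was the third. The list's summed level was 445 to 998 CPM in low and 349 to 681 CPM in high libraries, and its defining factors Gata6, Gata4 and Sox17 had medians of 0.157, 0.607 and 0.249 CPM in low and 0.584, 1.69 and 0.195 CPM in high libraries. Among 8 tested fibroblast and feeder markers Tagln fell and Vim, the intermediate filament vimentin, rose by 0.79 ± 0.19 (0.0372, and 0.252 without plate 1 and 0.185 without plate 2). The list summed to 225 to 458 CPM in low and 143 to 372 CPM in high libraries, while the fibroblast collagens Col1a1, Col1a2 and Col3a1 held 32, 5 and 13 UMIs in all 18 libraries. None of 4 blood and endothelial markers passed (summed 3.14 to 47.3 CPM in low and 3.62 to 32.0 CPM in high libraries), with Ptprc at 2 UMIs and Hba-x at 0. Of a list for rare cells resembling the 2-cell embryo only Eif1a was frequent enough to test, and it did not pass (-0.02 ± 0.08). It was at 250 to 367 CPM in the low and 246 to 343 CPM in the high libraries, thus present in all of them. The list therefore does not assess such rare cells.

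No pluripotency gene passed as lower. Of 26 tested factors 2 rose and none fell (7.69% called, beside 2.3% over all genes tested), with a median of 0.20. Sall4 rose by 0.54 ± 0.12 (edgeR adjusted p = 0.0306), and without plates 1, 2 and 3 its adjusted p was 0.0944, 0.103 and 0.294. Tdgf1, the Nodal co-receptor Cripto, rose by 0.42 ± 0.10 (0.0394), and did not pass without plate 2 (0.383) or plate 3 (0.174). The core factors Pou5f1 (0.15 ± 0.14), Sox2 (0.19 ± 0.14) and Nanog (0.52 ± 0.31) did not pass, and they are named after their values were seen. The summed level of the list was 4424 to 8587 CPM in low and 5037 to 7975 CPM in high libraries, which overlapped. It did not climb with the score. From the lowest quintile of wells to the highest it stood at 0.853, 1.12, 1.08, 0.994 and 0.893 of its mean. Pairs ranged from 0.780 to 1.14 in the lowest quintile and from 0.765 to 1.18 in the highest.

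Growth, stress and metabolism lists gave few calls, as the plot of all lists shows. Of 47 cytosolic ribosomal protein genes, 19 of glycolysis, 24 of cholesterol synthesis, 21 p53 targets, 11 of the mitochondrial genome and 20 H3K4 methyltransferase genes none passed, with medians of -0.00, 0.05, -0.21, -0.09, -0.03 and 0.05. Among 22 nucleolar and Myc growth genes 3 rose, each by a small amount: Ncl, nucleolin, by 0.23 ± 0.04, Npm1, nucleophosmin, by 0.18 ± 0.04 and Nop56, of the RNA methylation complex, by 0.36 ± 0.08. They passed over 9 pairs (edgeR adjusted p = 0.00766, 0.0163 and 0.0268) and not without plate 1 (0.0735, 0.0903 and 0.123) or plate 2 (0.101, 0.229 and 0.279), and Nop56 not without plate 3 (0.0609). Trp53, p53, rose by 0.32 ± 0.07 (0.0337), and did not pass without any 1 plate (0.0952, 0.281 and 0.24), while Cdkn1a, the p21 inhibitor it controls, did not pass (-0.33 ± 0.12, 0.2). The chaperone Hsp90aa1 rose by 0.21 ± 0.04 (0.0132, and 0.134 without plate 2 and 0.121 without plate 3). Brca2, of homologous recombination, rose by 0.86 ± 0.17 (0.0131, and 0.217 without plate 2 and 0.136 without plate 3).

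**Figure D4:**
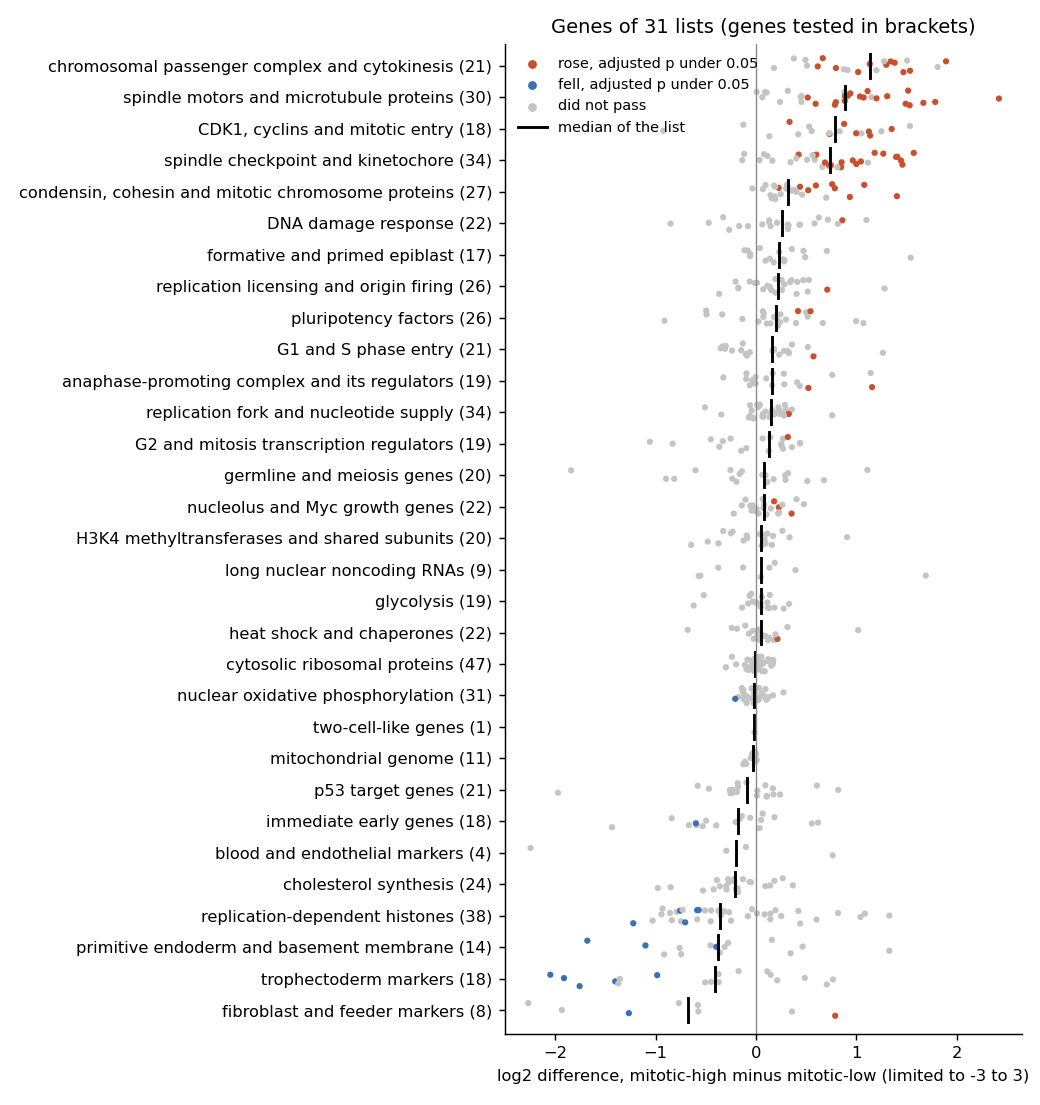
Log2 difference between mitotic-high and mitotic-low wells for each tested gene of 31 lists, ordered by the list median (black bar). Red genes rose, blue genes fell and grey genes did not pass. The cytokinesis, spindle, mitotic entry and kinetochore lists lie to the right with medians of 0.74 to 1.13, and histone, endoderm, trophectoderm and fibroblast lists to the left.

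Single genes of 2 more groups fell, which were 5.56 and 3.23% of their tested genes, beside 2.3% called over all genes tested. Dusp1, an immediate early phosphatase of MAP kinases, fell by 0.60 (SE 0.14; edgeR adjusted p = 0.0349, and 0.226 without plate 1 and 0.448 without plate 2), 1 of 18 tested genes of its list. Cox4i1, a subunit of cytochrome c oxidase, fell by 0.21 (SE 0.05; 0.0268, and 0.0629, 0.194 and 0.305 without plates 1, 2 and 3), 1 of 31. Lockd, a long noncoding RNA next to Cdkn1b, was among the 10 largest rises within the limits of 9 of 9 pairs and 10 CPM. It was at 9.62, 16.0 and 49.0 CPM in the low and 33.4, 61.5 and 88.3 CPM in the high libraries, which overlapped, a log2 difference of 1.65 ± 0.23 (edgeR adjusted p = 0.000652).

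The same contrast within each cell type asked whether Mll1 loss or inhibition changed what separates mitotic-high from mitotic-low cells. Kmt2a itself (chromosome 9, 44803355 to 44881296) was at 34.0 to 86.9 CPM in the low and 25.5 to 72.3 CPM in the high libraries and did not pass (-0.25 ± 0.19, edgeR adjusted p = 0.674). As the deleted exons are not named, its count does not check the genotype. Control cells gave 18 genes that passed (0.128%), 16 higher (0.114%) and 2 lower (0.0143%). Deleted cells gave 117 (0.834%), 56 higher (0.399%) and 61 lower (0.435%). Inhibited cells gave 33 (0.235%), 27 higher (0.192%) and 6 lower (0.0428%). Those counts fell to 7 to 9, 27 to 36 and 12 to 18 when a plate was left out. No gene passed edgeR's test of the difference between cell types, neither deleted against control (683 genes at an unadjusted p under 0.05), nor inhibited against control (553), nor inhibited against deleted (837). DESeq2 called 9, 2 and 18 genes in these tests, and edgeR without the filter on low counts 13, 7 and 15. A gene called in 1 cell type only is therefore not shown to differ from the others.

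The values of the leading genes in the 3 types are given side by side. Prc1 rose by 1.69 ± 0.12 in control, 1.99 ± 0.12 in deleted and 2.01 ± 0.13 in inhibited cells, and Mki67 by 1.39 ± 0.18, 1.45 ± 0.18 and 1.38 ± 0.18. Cdk1 rose by 1.27 ± 0.13, 1.72 ± 0.13 and 1.08 ± 0.13. Its difference between inhibited and deleted cells had an unadjusted p of 0.00383 and an edgeR adjusted p of 0.709. Nusap1 rose by 1.97 ± 0.27, 2.39 ± 0.27 and 2.93 ± 0.28. Krt18 was at -1.69 ± 0.42, -2.21 ± 0.40 and -2.20 ± 0.40, and passed in deleted (edgeR adjusted p = 0.0230) and inhibited cells (0.0473) but not in control (0.323). Hist1h2ap was at -0.60 ± 0.09, -0.36 ± 0.09 and -0.75 ± 0.09, with an edgeR adjusted p of 0.0163, 0.0983 and 0.00190.

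**Figure D5:**
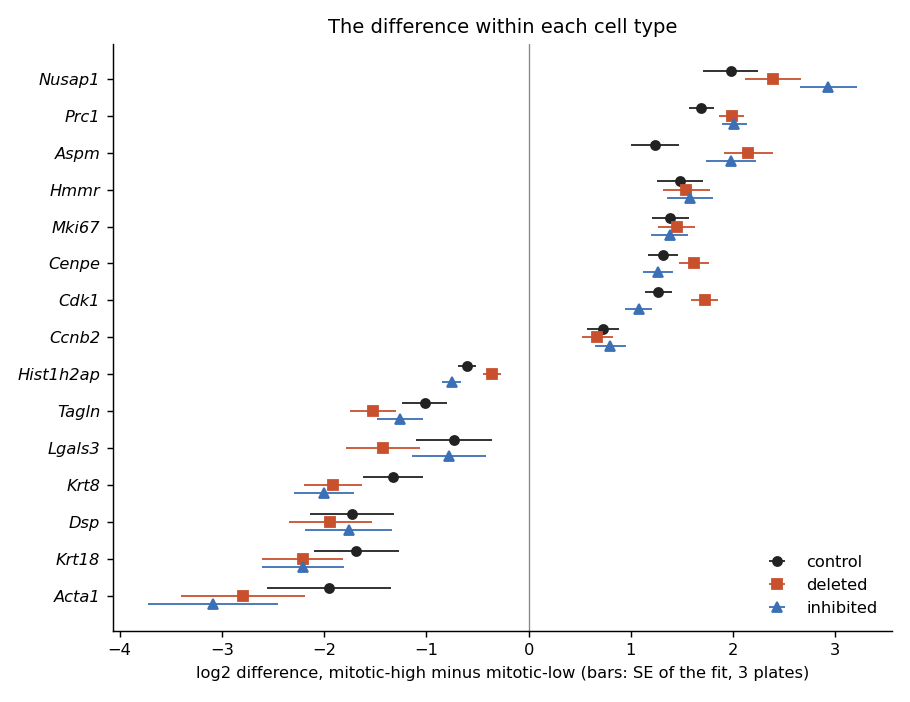
Log2 difference between mitotic-high and mitotic-low wells of 15 genes in control, deleted and inhibited cells, with the SE of the fit over 3 plates. All differences have the same sign in the 3 types, which follows in part from choosing these genes over all 9 pairs, and no difference between types passed.

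The score itself, which the choice of classes within plate and type did not fix between types, was compared as medians per plate over all scored wells. It was 1719 ± 121 per 1000000 UMIs in control, 1646 ± 66.1 in deleted and 1642 ± 81.2 in inhibited cells (SD, n = 3). Inhibited cells were below control on 3 of 3 plates, by a mean of -76.8 (exact two-sided permutation of signs, p = 0.25, the smallest that 3 plates allow). Deleted cells were below control on 2 of 3 plates (-73.3, exact p = 0.5), and the inhibited and deleted types differed by -3.51 (exact p = 1). With 3 plates no such difference could reach 0.05. Without plates 1, 2 and 3 the difference of deleted from control cells was -142, -63.5 and -14.7, and that of inhibited from deleted cells 39.4, 22.7 and -72.6. After thinning to 12000 UMIs inhibited cells differed by -27.8 from control and by 55.6 from deleted cells. The mitochondrial share of UMIs was lower in mitotic-high wells in 7 of 9 pairs, by a mean of -0.240 ± 0.364 percentage points (SD, n = 9), which did not pass an exact two-sided permutation of signs (p = 0.0664). After thinning to 12000 UMIs the difference was -0.103 (exact p = 0.531).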

How the data were processed

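Wells of 3 plates of mouse embryonic stem cells were analysed from the deposited counts of UMIs per gene and well. Per the submitters' processing notes the authors used STAR 2.5.2b, featureCounts and Subread 1.4.6-p1 with the mm10 build, and the deposited counts carry no normalization. Of strand and of reads with several matches, the handling is not given in the sources used.

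Spike-in and reporter sequences (0.652% of UMIs) entered neither library sizes nor tests, and 626 of 29267 gene identifiers had no name in GENCODE M21. Wells were filtered, scored, classed and summed as described above, and no doublet caller was run. Library sums were 3918248 to 9071432 UMIs, so precision is limited chiefly for genes of few CPM. The 18 sums were tested with edgeR 4.0.16 (quasi-likelihood F test, filterByExpr, TMM, pair as a block, Benjamini-Hochberg 0.05), without the score genes, and within cell types and between them in 1 further model. Same-pair libraries deviated together weakly (correlations 0.0448 to 0.0885, median 0.0490). Libraries of the same plate and different cell types did so about as much (0.0156 to 0.0873, median 0.0472), and those of different plates did not (-0.0825 to 0.00785). Pairs of the same plate may thus not be independent. The block follows from the choice of both classes within 1 plate and type. DESeq2 1.42.0, no filter, no block, thinning, other class sizes, other score genes, depth limits and omission of each plate were alternatives.

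The rule named the 10 largest rises and falls with the same sign in all 9 pairs and a mean of at least 10 CPM, up to 4 genes with the smallest p of each list, and Kmt2a. The members and lists were chosen with earlier results of these data known. On simulated data of 13512 genes for the 9-pair comparison, 65.2% of 2-fold, 35.8% of 1.5-fold and 7.5% of 1.25-fold changes were recovered. Of 75 calls, 3 were false. These shares were split by the size of the change and not by level. They therefore do not tell how many changes would be found among genes of few CPM, such as Cdx2, Eomes or Gata6. Some genes that the rule names are not reported here.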

Additional observations from a re-analysis of the deposited data

Results flagged for a closer look

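Among 60 groups of 9 pair differences tested for a pair far from the rest, of which chance marks about 1 in 20, 5 had one. The control pair of plate 1 stood apart for 3 genes. Its log2 difference was -0.24 for Krt8 (the other 8 pairs -2.47 to -1.40), -0.065 for Trp53 (0.23 to 0.48) and -3.28 for Tinagl1 (-2.11 to -0.92). For Col4a1 the inhibited pair of plate 3 was at 1.04 while the others were at -2.13 to -0.73. For Dusp1 the deleted pair of plate 3 was at 0.51 while the others were at -0.99 to -0.29.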

How the results depend on the processing

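Against 170 higher and 152 lower genes, DESeq2 called 364 and 431, 1 pair per plate summed over cell types with the replicate block 77 and 66, and omission of 1 plate 57 to 86 and 26 to 76. Without the filter on low counts 282 genes were lower. Without the replicate block 120 and 107 passed, and 213 of the 322 genes were among them, while DESeq2 kept 321. Thinning kept 183 of the 322, the score of Ccnb1, Cdc20, Plk1 and Aurka 136 (of 338 called), and the score of Cenpf, Top2a, Ube2c and Tpx2 194 (of 252 called). Within control cells (18 genes) DESeq2 called 90, no filter 88, thinning 57, the outer 10% 11, the score of Ccnb1, Cdc20, Plk1 and Aurka 7, and omission of a plate 7 to 9. Within deleted cells (117) the counts were DESeq2 555, no filter 375, no replicate block 46, the outer 10% 61, at least 25000 UMIs 70, without the deepest 5% of wells 46, the score of Cenpf, Top2a, Ube2c and Tpx2 36, and omission of a plate 27 to 36. Within inhibited cells (33) they were DESeq2 216, no filter 175, thinning 51, the outer 10% 16, the first 4 score genes 11, the other 4 20, and omission of a plate 12 to 18. Between cell types (0, 0 and 0) DESeq2 called 9, 2 and 18 and no filter 13, 7 and 15, for deleted against control, inhibited against control and inhibited against deleted. With the score of Ccnb1, Cdc20, Plk1 and Aurka, Dusp1 turned to 0.14 (edgeR adjusted p = 0.700), while the other 58 named genes that passed kept their sign in every alternative run. Causes of these shifts were not tested beyond what each setting leaves out.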
